A study of Mus musculus with 2 samples.

Results

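Among 20951 barcodes of 2 single-cell libraries of sorted mouse splenic natural killer (NK) cells, 192 held macrophage and NK transcripts together: 57 of 10928 in the control library and 135 of 10023 in the knockout library. A droplet was counted as mixed when it held at least 500 genes, at most 10% mitochondrial unique molecular identifiers (UMIs), at least 5 UMIs over C1qa, C1qb and C1qc, the 3 chains of complement C1q, and at least 6 UMIs over the NK genes Ncr1, Klrb1c, Klrk1, Klre1, Klrd1 and Nkg7. The droplets were thus chosen by the measured UMIs of these 9 genes, whose levels are given below as a description. The animals were of the C57BL/6 strain. Both groups carried a floxed Ptger3, the gene of the prostaglandin E2 receptor EP3. The control group (EP3F/F) had no Cre, and in the knockout group (NKp46CreEP3F/F) Cre driven from Ncr1, the gene of NKp46, acts in cells that express or have expressed NKp46. Spleen cells positive for CD27 and CD11b were sorted as NK cells, and those of 2 mice were pooled into 1 library per group, so no test between groups can be made. Genotype and library cannot be told apart. Intervals are 95% intervals of counting error alone.

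Macrophages of the splenic red pulp clear aged red blood cells and recycle their iron. They depend on the transcription factor Spic, carry the adhesion molecule Vcam1, and express haem oxygenase (Hmox1) and the iron exporter ferroportin (Slc40a1). Macrophages of the marginal zone carry the scavenger receptor Marco and the lectin Cd209b, and the neighbouring metallophilic macrophages carry Siglec1. NK cells kill target cells with granzymes and perforin and recruit other cells with chemokines such as Ccl3, Ccl4 and Ccl5. Integrin alpha 4 (Itga4), found on NK cells, is a partner of Vcam1.

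Each library also held the cells from which an expected mixture could be made. Reference macrophages had at least 5 C1q UMIs and at most 2 NK UMIs, 31 cells in the control library and 122 in the knockout library. Reference NK cells had no C1q UMI and at least 6 NK UMIs, and there were 10483 and 9271. The libraries held 69853026 and 42795121 UMIs, and a reference NK cell had a median of 5842 and 3849. The libraries shared 33 barcode sequences, of which 0 were mixed droplets. Ptger3 was listed at 0 UMIs in the mixed droplets and the macrophages of both libraries. It had 16 UMIs over the 10483 control NK cells and 0 over the 9271 knockout NK cells, a level too low to be read in the droplets, where a count of 0 allows up to 7.495 CPM in the control and 4.09 CPM in the knockout.

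Mixed droplets made up 0.522% (interval 0.395 to 0.675) of kept control barcodes and 1.35% (1.13 to 1.59) of kept knockout barcodes. Reference macrophages made up 0.284% (0.193 to 0.402) and 1.22% (1.01 to 1.45), so both kinds of C1q barcode were more frequent in the knockout library. Of all kept barcodes with at least 5 C1q UMIs, 64.8% (53.9 to 74.7) were mixed in the control and 52.5% (46.2 to 58.8) in the knockout. This share rests on the gene minimum, which removed 62 control and 159 knockout macrophages and no mixed droplet. Without it the shares were 38.0% (30.2 to 46.3) and 32.5% (28.0 to 37.2), and their intervals overlapped.

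The NK threshold fell in an empty range. No C1q barcode of either library held between 3 and 5 NK UMIs, and the mixed droplet with the fewest held 13 (control) and 8 (knockout). The C1q threshold had members on both sides of it. Among barcodes with at least 6 NK UMIs, 15 control and 17 knockout barcodes held 4 C1q UMIs, just outside, and 9 and 21 held 5, just inside.

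**Figure D1:**
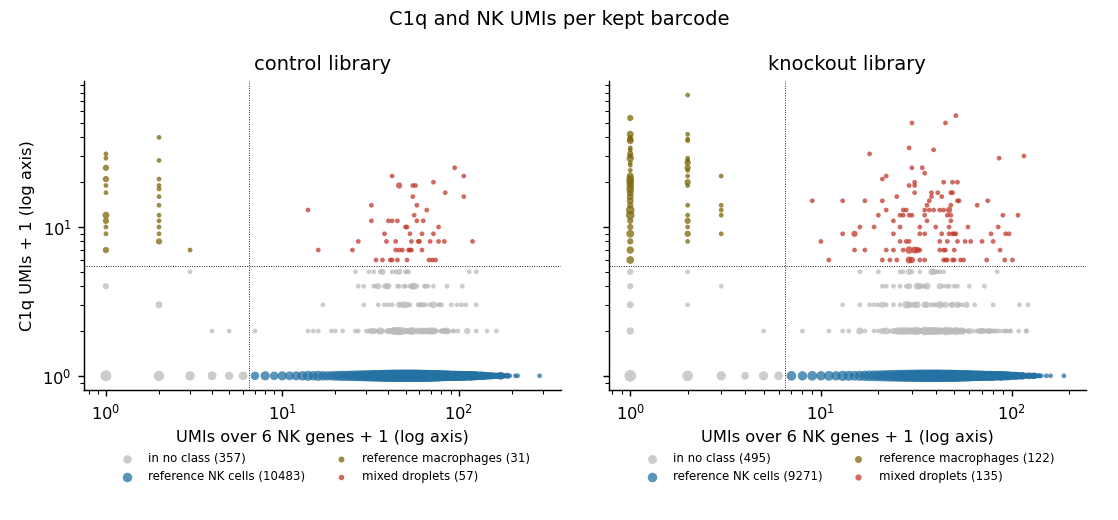
UMIs over the 6 NK genes (x axis, plus 1, log scale) and over the 3 C1q genes (y axis, plus 1, log scale) of every kept barcode in the control (left) and knockout (right) library. Points are coloured by class, larger points stand for more barcodes at the same values, and dotted lines mark the thresholds. The 57 and 135 mixed droplets lie well to the right of the macrophages, with no barcode between them, and border on NK cells with 1 to 4 C1q UMIs.

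The markers of both cell types were present in the same barcodes. C1qa, which was part of the rule, had a median of 3 UMIs in a control droplet and 4 in a knockout droplet, against 5 and 7 in reference macrophages. Nkg7, a protein of cytotoxic granules and also part of the rule, had medians of 17 and 11, against 17 and 12 in reference NK cells. The rule did not use Mrc1, the mannose receptor, or Axl, a receptor for dying cells. A UMI of Mrc1 was found in 50.9% (37.3 to 64.4) of control and 51.1% (42.4 to 59.8) of knockout droplets, against 0.143% and 0.194% of reference NK cells and 74.2% and 77.9% of macrophages. A UMI of Axl was found in 47.4% (34.0 to 61.0) and 53.3% (44.6 to 62.0) of droplets, against 0.553% and 0.820% of NK cells and 54.8% and 77.9% of macrophages. Both markers were thus found far more often than in reference NK cells of the same library. Droplets and macrophages differed in depth, and in the control their intervals overlapped for both markers. In the knockout the intervals lay apart, with macrophages at 69.5 to 84.9 for each marker, above the deeper droplets.

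In size, the droplets were close to an NK cell with a smaller amount of macrophage RNA. A control droplet held a median of 6236 UMIs and a knockout droplet 4703, and macrophages held 1200 and 1418. The mean droplet, with 7022 control and 5439 knockout UMIs, reached 91.6% and 90.7% of the sum of a mean macrophage and a mean NK cell. The macrophage share of the droplets' UMIs was estimated by fitting their summed profile, without the 9 rule genes, as a mixture of both reference profiles. It came to 11.8% (11.5 to 12.2) in the control and 17.4% (17.1 to 17.7) in the knockout. The plain sum of a mean macrophage and a mean NK cell would have given 16.9% and 29.2%. Both sums use macrophages that passed the gene minimum, with means of 1295 and 1750 UMIs. Without the minimum these means were 894 and 1155, which makes the sums and their macrophage shares smaller. The intervals of the fitted share hold for this fit, and other ways of fitting moved that share beyond them, as given in the closing section.

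Fitted droplet by droplet, the macrophage share was 1.84% at the lowest, 10.9% at the median and 27.7% at the highest in the control library. In the knockout library it was 0.988%, 14.1% and 64.0%. More than 10% was reached by 32 of 57 control and 101 of 135 knockout droplets, and by 8 of 10483 and 33 of 9271 reference NK cells. More than 50% was reached by 0 control and 2 knockout droplets.

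Expressed as UMIs, the macrophage side of a droplet had a median of 638 in control and 694 in knockout droplets. Macrophages had 1200 and 1418 UMIs with the gene minimum and 773 and 859 without it. The NK side had medians of 5557 and 3946, next to 5842 and 3849 UMIs in reference NK cells. The macrophage side thus differed little between the libraries, and the larger macrophage share in the knockout library went with fewer NK UMIs per droplet. The lower NK count is shared by the reference NK cells and moves with the lower depth of that library, whose part in the difference was not tested.

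**Figure D2:**
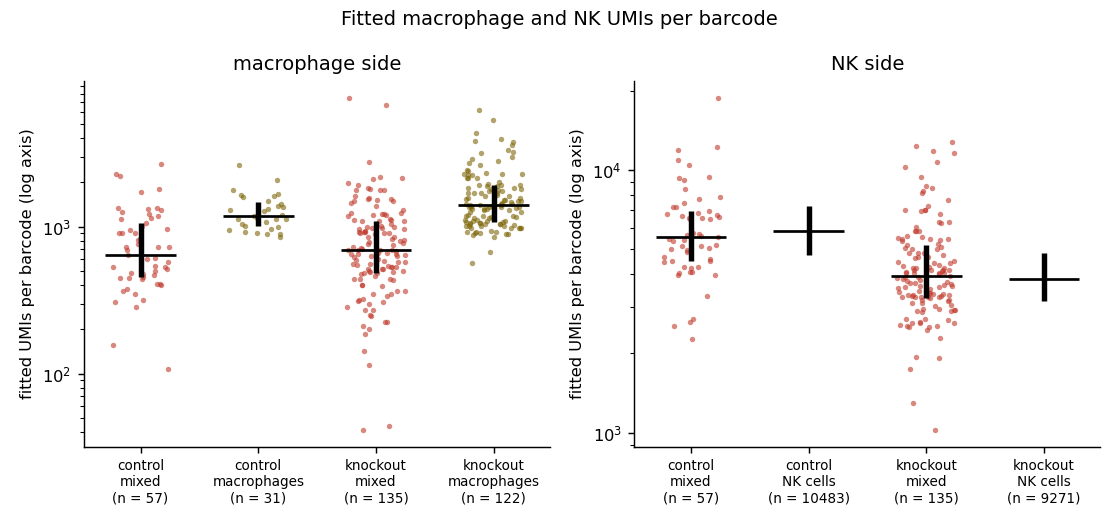
Fitted UMIs per barcode (y axes, log scale) on the macrophage side (left) and the NK side (right). Each point is a mixed droplet or a reference macrophage, horizontal lines are medians and thick bars run from the 25th to the 75th percentile, with NK cells shown by these alone. The macrophage side of the droplets lies below the reference macrophages (medians 638 and 694 against 1173 and 1411), and the NK side lies at the level of reference NK cells.

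The macrophages in the droplets carried the transcripts of the red pulp type. At least 2 UMIs over Vcam1, Spic, Cd5l, Hmox1 and Slc40a1 were found in 52 of 57 control droplets (91.2%, 80.7 to 97.1) and 123 of 135 knockout droplets (91.1%, 85.0 to 95.3). This held for 30 of 31 and 121 of 122 macrophages, and for 0.229% and 0.475% of NK cells. At least 2 UMIs over Marco, Cd209b and Siglec1 were found in 0 of 57 control droplets, which allows up to 6.27%, and in 11 of 135 knockout droplets (8.15%, 4.14 to 14.1). The corresponding share of macrophages was 2 of 31 and 31 of 122 (25.4%, 17.96 to 34.1).

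Droplets are deeper than macrophages, so each barcode was also thinned to 2000 UMIs, and shallower ones were left out. Red pulp genes then reached 2 UMIs in 64.9% of 57 control droplets and 77.6% of 134 knockout droplets, and in 2 of 2 and 28 of 28 macrophages. Marginal zone genes did so in 0 of 57 and 1 of 134 droplets (0.746%, 0.0189 to 4.09) and in 0 of 2 and 8 of 28 macrophages (28.6%, 13.2 to 48.7). The thinning left out 29 of 31 control and 94 of 122 knockout macrophages, and most UMIs of a thinned droplet come from its NK side.

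Counted as UMIs, the marginal zone genes took a smaller part in the droplets than in the macrophages. Of all UMIs of the 5 red pulp and 3 marginal zone genes, the latter held 0.619% (4 UMIs, interval 0.169 to 1.58) in control droplets and 3.87% (2.31 to 6.05) in control macrophages. In the knockout library they held 2.77% (2.08 to 3.62) in droplets and 4.49% (3.82 to 5.24) in macrophages. The intervals of droplets and macrophages did not overlap in either library. They count each UMI as independent, whereas UMIs gather in droplets. In the knockout, 1 droplet held 110 of the 817 Vcam1 UMIs and 1 held 65 of the 597 Hmox1 UMIs. Marco lay in 22 of 135 knockout droplets, and whether the gap exceeds such clustering was not tested. When macrophages below the gene minimum were added, their value was 2.51% (1.58 to 3.77) in the control, whose interval met that of the droplets, and 4.16% (3.63 to 4.74) in the knockout, where the intervals stayed apart. The control value also rests on few cells, since 11 of the 18 UMIs of control macrophages came from 1 cell. In the knockout library nearly all of these UMIs were Marco, with 51 in droplets and 137 in macrophages, and Siglec1 had 1 and 17. Control droplets had 2 UMIs of each, and Cd209b had none in any droplet or macrophage. Ccr2, which marks monocytes but is also expressed by NK cells, cannot serve to tell them here. The 6 monocyte genes together gave 49.8 CPM in control macrophages and 46.8 CPM in knockout macrophages, against 495 and 399 CPM in NK cells.

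Most red pulp genes were near their mixture level in both libraries. Levels are in counts per 1000000 UMIs (CPM), and the difference is the log2 of the observed level over that of the fitted mixture. Vcam1 was observed at 640 CPM and expected at 462 CPM in control droplets (log2 0.47, 0.18 to 0.75), and at 1113 and 1224 CPM in knockout droplets (-0.14, -0.26 to -0.01). A single knockout droplet held 110 of its 817 UMIs. Hmox1 was at 440 against 402 CPM (0.13) and 813 against 842 CPM (-0.05). Slc40a1 was at 0.17 and -0.16 on the log2 scale, Spic at 0.28 and -0.08 and Cd5l at 0.21 and -0.07. Summed over all 9 listed red pulp genes, the difference was 0.23 (0.06 to 0.39) in the control and -0.08 (-0.16 to -0.01) in the knockout. Itgad, which encodes integrin alpha D, was the 1 of 6 measured members below in the control, at -0.77 (-1.64 to 0.11) but at 0.45 with references taken as free of counting error, and 0 of 8 passed 0.58 in the knockout.

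Genes of other macrophage functions gave the following values. Ferritin light chain (Ftl1), which stores iron, was at 2403 against 2475 CPM in control droplets (-0.04) and 3518 against 3840 CPM in knockout droplets (-0.13). Mrc1 differed from the mixture by -0.09 (-0.57 to 0.39) and -0.03 (-0.30 to 0.24), and Axl by 0.19 (-0.45 to 0.83) and -0.01 (-0.29 to 0.28). The lysosomal protease Ctsb was slightly below its mixture level in both libraries, at -0.19 (-0.44 to 0.07) and -0.20 (-0.34 to -0.06). Iron handling genes summed to 0.02 and -0.12, genes of dead-cell uptake to -0.02 and 0.04, and MHC class II genes to -0.22 and -0.08. No member of these 3 lists passed the size of 0.58 in either direction in either library. The measured members numbered 6 and 10, 2 and 5, and 5 and 5. Of 13 measured lysosomal genes in the control, 2 were above, Hexa at 0.67 (-0.08 to 1.41) and Lgmn at 0.65 (0.00 to 1.29), and 0 of 13 were above or below in the knockout. The list summed to 0.06 and -0.10. Genes of macrophage cytokines summed to -0.50 (-0.88 to -0.13) and 0.17 (-0.04 to 0.38), and of 2 measured in the control the cytokine Il18 was below, at -0.94.

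The control sums of macrophage lists depended on the fit. With references taken as free of counting error, which gave a macrophage share of 4.19%, iron handling was at 0.92, dead-cell uptake at 1.22, MHC class II at 1.09, the red pulp list at 1.70 and the general macrophage list at 0.95. With the plain sum of means the same lists were at -0.37, -0.49, -0.71, -0.29 and -0.95. In these control lists neither the sign nor a size under 0.58 therefore holds for every fit.

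Lysozyme (Lyz2), an enzyme of monocytes and many macrophages, was far below the mixture in the control library. It was observed at 49.97 CPM and expected at 474 CPM in control droplets (-3.24, -3.92 to -2.57), and at 753 and 1098 CPM in knockout droplets (-0.54, -0.69 to -0.40). Its transcripts lay in few cells: 12.3% of control and 28.1% of knockout droplets had a UMI, 1 droplet held 70.0% of its 20 control UMIs, and 1 macrophage held 35.6% of the UMIs of the control reference. The 12 general macrophage genes summed to -0.45 (-0.59 to -0.31) and -0.11 (-0.17 to -0.04), and to -0.20 and 0.03 without Lyz2. Sirpa, the receptor for CD47, was the 1 member of this list below by 0.58 in the knockout, at -0.68 (-1.06 to -0.30), and was at -0.20 (-0.84 to 0.44) in the control. Apoc1, an apolipoprotein gene singled out after its values were seen, was at 14.99 against 91.3 CPM in the control (-2.61) and 79.0 against 89.3 CPM in the knockout (-0.18).

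Across all measured genes most differences from the mixture were small. A gene was measured when the mean of its observed and mixture level reached 50 CPM, which left 3037 control and 2844 knockout genes, and a log2 difference of 0.58 marked it as above or below. In the control 94 genes (3.1%) were above and 48 (1.58%) below, and in the knockout 94 (3.31%) were above and 29 (1.02%) below. Genes chosen in the other library as belonging to 1 side had medians near 0, with a wider spread on the macrophage side of the control. The macrophage share was fitted to these same droplets, so medians near 0 are partly set by the fit and do not test it. The macrophage-side genes had a median difference of -0.04 in the control (73 genes, of which 5 were above and 9 below, 10th to 90th percentile -0.60 to 0.41) and -0.06 in the knockout (108 genes, 3 above and 3 below). The NK-side genes had medians of 0.03 (142 genes, 0 above and 4 below) and 0.10 (196 genes, 7 above and 5 below). The median over all measured genes was 0.04 and 0.03, with a 10th to 90th percentile of -0.29 to 0.40 in the control.

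**Figure D3:**
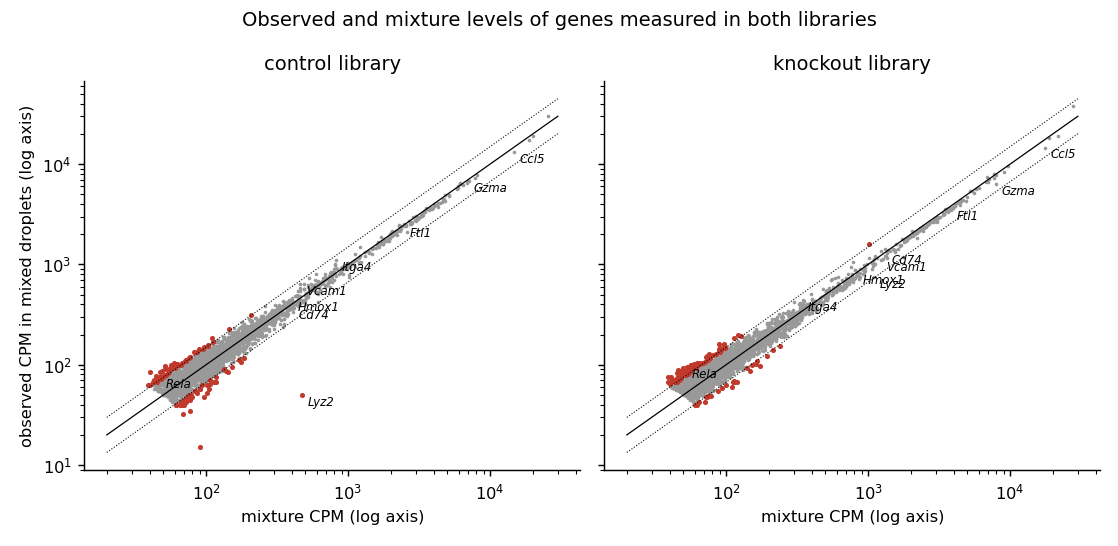
Observed level in mixed droplets (y axis, CPM, log scale) against the level of the fitted mixture (x axis, CPM, log scale) for the 2602 genes measured in both libraries. The solid line marks equality, dotted lines a log2 difference of 0.58, and red points lie beyond them. Most genes beyond the lines have a low level, and Lyz2 lies far below the line in the control library (49.97 against 474 CPM).

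Of the 2602 genes measured in both libraries, 8 (0.307%) were above the mixture in both and 0 (0%) were below in both. The 8 were Ago2, the effector of small RNA silencing, Gigyf1, Ldb1, an adaptor of LIM domain transcription factors, Nup210 of the nuclear pore, Rela, the p65 subunit of NF-kappaB, the protein kinase Rock2, the phosphate transporter Slc20a1 and the Y-linked helicase Ddx3y. Ddx3y lay outside the naming rule and was named after its values were seen. Each rests on few UMIs, with 28 of Gigyf1 and 30 of Rela in the control, and no gene passed a log2 difference of 1 in both libraries.

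Slc20a1 was at 84.9 against 47.5 CPM in the control (0.84, 0.35 to 1.33) and 72.2 against 47.0 CPM in the knockout (0.62, 0.20 to 1.04). Rela was at 74.95 against 47.3 CPM (0.67, 0.09 to 1.24) and 94.0 against 52.8 CPM (0.83, 0.47 to 1.19). Rock2 was at 145 against 89.1 CPM (0.70) and 70.8 against 44.0 CPM (0.69). With at least 10 C1q and 12 NK UMIs asked of a droplet, Rock2 was at -0.02 in the control. Of the other 12 genes with the highest difference in both libraries, Ccnt1, the cyclin of the elongation factor P-TEFb, was at 0.57 and 0.72, the RNA-binding protein Celf1 at 0.56 and 0.53, and the transcription factor Runx1 at 0.53 and 0.57. Mllt6 was at 0.55 and 0.71 and the kinase Uhmk1 at 0.56 and 0.56. Over the settings compared, the knockout value ran from -0.08 to 0.71 for Uhmk1 and from 0.06 to 0.82 for Slc20a1. Of the 12 genes, only Uhmk1 changed sign in the knockout.

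At the other end, 12 genes had the lowest difference over both libraries. Tuba1b, an alpha tubulin, was at 80.0 against 116 CPM in the control (-0.54, -1.10 to 0.02) and 88.5 against 131 CPM in the knockout (-0.56, -0.94 to -0.18). Psmc5, an ATPase of the proteasome, was at -0.50 and -0.57, Jtb at -0.51 and -0.54, and Dhrs7, a dehydrogenase, at -0.49 and -0.50. The remaining 8 of these 12 genes were Akirin2, Erp44, Filip1l, Hcfc1r1, Man2a1, Mrpl58, Nol7 and Pebp1, with differences between -0.88 (Man2a1, knockout) and -0.35 (Erp44, knockout).

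The length of the transcripts moved with these differences. With the measured genes split into 4 classes of equal size by exon length, the median difference in the class of shortest genes was -0.05 in the control and -0.09 in the knockout. In the class of longest genes it was 0.14 and 0.22, and the classes between followed in order. The class of longest genes held 35 of the 94 control genes above and 55 of the 94 knockout genes above, and 10 of 48 and 3 of 29 of those below. The 12 named genes above had a median exon length of 8274 bases and the 12 below one of 2314 bases, against 4208 bases over the genes measured in both libraries. The part of length in the differences was not tested.

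The NK side had the receptors of the NK cells of its library. Without the rule genes, 16 NK receptor and regulator genes of the list summed to 6413 CPM against 6634 CPM in the mixture in control droplets (-0.05, -0.11 to 0.01) and to 6315 against 6019 CPM in knockout droplets (0.07, 0.03 to 0.11). Of 16 measured in the control 0 were above and 1 below, and of 15 in the knockout 0 were above or below. In this and the other lists, many members were named for moving the same way in both libraries. Their agreement in sign was therefore set by the choice. Il2rb, the receptor chain for interleukin 2 and 15, was higher than the mixture in both, at 1007 against 810 CPM (0.31, 0.17 to 0.46) and 1061 against 783 CPM (0.44, 0.34 to 0.54). The Ly49 gene Klra4 was lower in both, at -0.23 (-0.38 to -0.08) and -0.26 (-0.38 to -0.13). Ly49 genes are similar to each other, so reads can be assigned to the wrong member.

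Several effector genes had levels below the mixture. Granzyme A (Gzma) was at 6718 against 6999 CPM in the control (-0.06, -0.11 to 0.00) and 6317 against 7919 CPM in the knockout (-0.33, -0.37 to -0.28). Granzyme B (Gzmb) was at -0.26 (-0.58 to 0.05) and -0.63 (-0.90 to -0.37), and the protease Cma1 of mature NK cells at -0.23 (-0.63 to 0.16) and -0.85 (-1.19 to -0.51). The 14 cytotoxic genes summed to -0.05 (-0.10 to -0.01) and -0.25 (-0.29 to -0.22), with 0 of 9 measured members below in the control and 1 of 9 in the knockout. Gzma held 4638 of the 6352 knockout UMIs of this list, and the median over its measured members was -0.06 and -0.05. Cst7, an inhibitor of granule proteases, was at -0.31 and -0.21. The 10 genes of mature NK cells summed to -0.04 and -0.27 with medians of -0.03 and 0.07, and members among them went the other way. S1pr5, a receptor for exit from tissues, was at 0.32 and 0.45, and the transcription factors Zeb2 and Prdm1 were at 0.26 and 0.20 and at 0.26 and 0.30. The difference between the libraries was not tested.

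Several genes of NK activation had levels below the mixture as well. The chemokine Ccl5 was at 13216 against 14749 CPM in the control (-0.16, -0.20 to -0.12) and 14598 against 17508 CPM in the knockout (-0.26, -0.29 to -0.23). Ccl3 was at -0.12 and -0.68, Ccl4 at -0.10 and -0.59 and interferon gamma (Ifng) at -0.34 and -0.44. Over the settings compared, the control values ran from -0.82 to 0.06 for Ccl3, from -0.64 to 0.22 for Ccl4 and from -0.45 to 0.19 for Ifng. Their knockout values, and those of Ccl5 in both libraries, kept their sign. The 13 activation genes summed to -0.14 (-0.18 to -0.10) and -0.27 (-0.29 to -0.24), with 0 of 6 measured members below in the control and 2 of 5 in the knockout. Ccl5 held 5290 of the 5742 control and 10718 of the 11029 knockout UMIs of this list, whose measured members had medians of -0.14 and -0.52. Some of these transcripts lay in few droplets, since 1 control droplet held 27.6% of the UMIs of Ccl4 and 47.1% of those of the chemokine Xcl1. Xcl1, singled out after its values were seen, was at 0.56 in the control and -0.52 in the knockout.

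Genes of less mature NK cells and adhesion genes lay on both sides of the mixture. Tcf7, a transcription factor of early NK cells, was at 150 against 102 CPM in the control (0.55, 0.19 to 0.92) and 106 against 78.4 CPM in the knockout (0.44, 0.11 to 0.76). The list of immature NK genes summed to 0.12 and -0.04, with 0 of 8 and 1 of 10 measured members above. Cd7 of this list was at -0.05 (-0.31 to 0.21) and -0.22 (-0.41 to -0.02). Itga4 was at 1112 against 819 CPM (0.44, 0.30 to 0.58) and 440 against 345 CPM (0.35, 0.19 to 0.51), and Itgal, the alpha chain of the integrin LFA-1, at 0.31 and 0.31. The adhesion molecule Cd2 was at -0.28 and -0.21. The 14 adhesion genes summed to 0.10 (0.03 to 0.16) and 0.03 (-0.02 to 0.09), with 0 of 11 members past 0.58 in either direction in either library.

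Lists with few UMIs in the control had wide intervals. The 4 marginal zone genes, with 16 UMIs, summed to -1.20 (-2.07 to -0.33) in the control and -0.42 (-0.76 to -0.07) in the knockout, and the 7 platelet genes, with 5 UMIs, to -1.76 (-3.17 to -0.35) and 0.13 (-0.45 to 0.71).

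Lists of stress and growth genes summed to small differences. Heat shock genes summed to -0.05 and -0.11, immediate early genes to -0.13 and 0.02, interferon-induced genes to -0.29 and 0.03, and division genes to 0.15 and -0.10. The immediate early gene Junb was lower than the mixture in both, at -0.52 (-0.74 to -0.30) and -0.25 (-0.39 to -0.11). The 12 measured genes of its list had medians of -0.09 and 0.11. Of these, 0 passed 0.58 in either direction in the control, and 1 was above and 0 below in the knockout. Of 5 measured division genes, 0 passed it in the control and 1 was below in the knockout. Mitochondrial transcripts summed to 0.00 and 0.03. Ribosomal protein genes summed to -0.09 (-0.10 to -0.08) and -0.07 (-0.08 to -0.06), and 0 of 80 and 0 of 81 measured members passed 0.58. The nuclear RNA Malat1 was at -0.11 and -0.05. Other nuclear RNAs went the other way, with Neat1 at 0.29 and 0.32 and Kcnq1ot1 at 0.37 and 0.73.

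**Figure D4:**
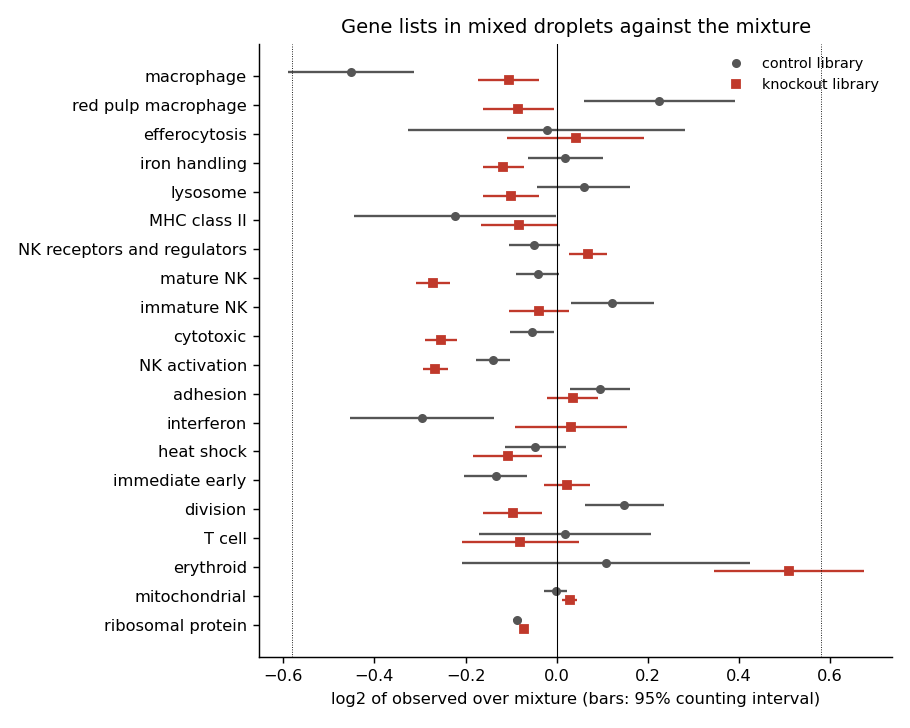
Log2 of the observed over the mixture level of summed UMIs (x axis) for 20 gene lists (y axis) in the control library (circles) and the knockout library (squares), with 95% counting intervals as bars and dotted lines at 0.58 and -0.58. None of these 20 lists passes 0.58 in either direction. Cytotoxic, mature NK and activation genes lie below the mixture in the knockout library (-0.25, -0.27 and -0.27), and of the 20 the macrophage list lies lowest in the control library (-0.45).

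Between the libraries, the droplets differed in part in the way their fitted mixtures did. These mixtures contain the macrophage share fitted to the same droplets, so closeness on macrophage genes is partly set by the fit. The log2 of the knockout over the control level had a median of -0.08 and an SD of 0.50 across the 3045 genes measured, with 184 (6.04%) higher and 431 (14.2%) lower in the knockout by 0.58 or more. After the difference between the mixtures was subtracted, the SD was 0.35, with 161 (5.29%) higher and 127 (4.17%) lower. The MHC class II genes summed to 787 CPM in control and 2415 CPM in knockout droplets (1.62, 1.44 to 1.79), and the mixtures differed by 1.48. All 5 measured members were higher, among them Cd74, the chaperone of class II molecules (1.82, and 1.72 in the mixtures). Reference macrophages held 7275 and 14100 CPM of these genes.

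Heat shock genes went the other way, from 5009 to 2140 CPM (-1.23, -1.32 to -1.13), with -1.17 in the mixtures and 9 of 10 measured members lower. The chaperone Hspa8 differed by -1.29 (-1.22 in the mixtures). Wls, the carrier of Wnt proteins, was at 57.5 CPM in control droplets and 565 CPM in knockout droplets (3.30, and 3.44 in the mixtures). Red pulp genes went from 1734 to 2855 CPM (0.72, 0.59 to 0.85), less than the 1.03 of the mixtures, in which the larger macrophage share of the knockout library is contained.

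Named here are extremes of the 161 and 127 genes beyond 0.58 after this subtraction. Lyz2, with 70.0% of its control UMIs in 1 droplet, differed by 3.91 against 1.21 in the mixtures. Itgad was higher in knockout droplets by 1.91 (1.17 to 2.74), against 0.67 in the mixtures, on 17 control and 117 knockout UMIs. Its control difference from the mixture turned with the fit. The NK receptor gene Klrb1b differed by 1.99 against 1.06, and the protease inhibitor Cstb by 1.01 against 0.20. Lamtor4, a lysosomal adaptor of mTOR signalling, differed by 0.95 against 0.10. At the lower end were Brd1 (-1.37 against -0.46), the lysosomal protease Lgmn (0.30 against 1.18), Cox17 (-0.53 against 0.23), Tmed2 (-0.28 against 0.44), Higd2a (-0.27 against 0.45) and Polr2k (-0.42 against 0.29). Over the settings compared, the difference of Lgmn from the mixture ran from 0.135 to 2.11 in the control. In the knockout it ran from -0.98 to 0.16. All genes named here are among the extremes of 3045 and are given as a description.

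**Figure D5:**
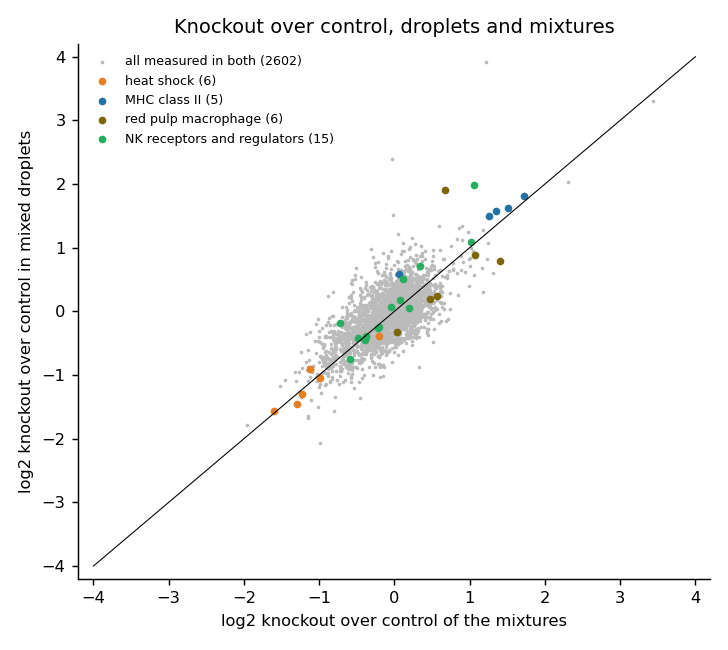
Log2 of the knockout over the control level in mixed droplets (y axis) against that of the fitted mixtures (x axis) for the 2602 genes measured in both libraries, with 4 gene lists coloured and a line of equality. Heat shock genes lie at the lower left and 4 of the 5 MHC class II genes at the upper right, close to the line. Itgad is the red pulp gene farthest above it (1.91 against 0.67).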

How the data were processed

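The deposited files hold counts, 1 table of UMIs per gene and barcode for each library, with no normalization by the authors. Libraries were made with a Single Cell 3' v2 kit, per the labels' protocols. The barcodes look like those of another chemistry, and this was not settled. The submitters' processing notes name STAR, Cell Ranger 3.0.0, Seurat and the build GRCm39. Files list 31053 genes. Groups came from the genotype labels. Kept barcodes had at least 500 genes and at most 10% mitochondrial UMIs, which left out 857 control and 592 knockout barcodes. No doublet caller was run and none were removed, since such barcodes are the subject; how mixed droplets arose was not tested.

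UMIs were summed per class and divided by their total (CPM). The mixture was fitted by maximum likelihood, with both reference profiles estimated from their counts, in 6 rounds that left out genes more than 3 counting SDs away. The plain fit planned at first underestimated the share in simulated data and is kept as an alternative. Differences carry delta-method intervals, shares exact binomial (Clopper-Pearson) ones and library ratios conditional binomial ones, all at 95%. A count of 0 is read against 3 counts. Exon lengths are from GENCODE M21, matched by gene ID. Simulated data with known shares and changed genes were recovered. Tables and fits were made in Python 3.11.15 with pandas 2.3.3, scipy 1.17.1 and numpy 2.4.6, and plots with matplotlib 3.10.9.

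The members, the 30 gene lists and the naming rule were chosen with earlier results of these data known. Named were the 6 markers, the 9 rule genes, Ptger3 and Wls, the 12 genes with the highest lower value and the 12 with the lowest upper value over both libraries, up to 4 measured members of each list that moved the same way in both, and the 6 highest and 6 lowest library ratios (at least 100 CPM) after subtraction of the mixtures' ratio. Genes of mitochondria, ribosomes, haemoglobins, antigen receptors and sex chromosome markers, predicted genes, and genes with over 20% of their UMIs in 1 droplet, were left out of the ranked choices. Of these 119 genes the text gives the main ones. Some named genes are not reported here. 11 planned settings and 5 added after seeing the data were compared.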

Additional observations from a re-analysis of the deposited data

Results flagged for a closer look

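Ktn1, the gene of kinectin, a membrane anchor for the motor protein kinesin, was the only gene measured in both libraries that passed the size of 0.58 in opposite directions. It was at 52.5 against 85.7 CPM in control droplets (log2 difference from the mixture -0.71, -1.34 to -0.07), on 21 UMIs, and at 103 against 69.1 CPM in knockout droplets (0.58, 0.24 to 0.93), on 76 UMIs. The difference between the libraries was not tested.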

How the results depend on the processing

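The macrophage share (11.8% control, 17.4% knockout) depended most on the fit and the thresholds. It was 4.19% and 14.9% when the references were taken as free of counting error, 13.1% and 19.5% without leaving out genes far from the mixture, 11.0% and 16.2% from macrophage genes chosen in the other library, and 15.6% and 23.4% in droplets with at least 10 C1q and 12 NK UMIs. It was 10.9% in the control on genes 10-fold apart and 12.6% with macrophages of 0 NK UMIs, and in the knockout 16.01% without the deepest 5% of droplets and 17.05% without a gene minimum for macrophages. In each of these the knockout share was the higher.

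With at least 10 C1q and 12 NK UMIs, mixed droplets were 0.201% and 0.599% of kept barcodes and 25% and 23.4% of barcodes with at least 5 C1q UMIs, their mean UMIs were 106% and 93.5% of the sum of means, and 100% and 98.3% had red pulp UMIs. 381 and 199 genes were then above (27 in both) and 167 and 86 below (12 in both), 304 were higher and 666 lower in the knockout, and 13 list members were above and 9 below in the control, where Rock2 was at -0.019. With at least 1000 genes and at most 5% mitochondrial UMIs, no control macrophage was left, so no control mixture could be fitted. The knockout fit then rested on 12 macrophages and gave 18.7%, 82 genes below and mean UMIs of 71.8% of the sum. All (100%) of the control and 89.3% of the knockout C1q barcodes were mixed; without a gene minimum 38.0% and 32.5% were.

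Counts of genes followed the level required. At a mean of 20 CPM, 477 control and 414 knockout genes were above (44 in both), 277 and 141 below (11 in both), and 618 were higher and 988 lower in the knockout, with 6 and 11 list members above and 10 below in the control. With no minimum, 2164 and 2293 were above (491 in both), 1250 and 1024 below (178 in both), 1916 higher and 2282 lower, with 23 and 34 list members above and 28 and 28 below. At a log2 size of 1, 4 and 0 were above (0 in both), 5 and 0 below, 42 higher and 108 lower.

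With the plain sum of means, 169 knockout genes were above (16 in both), 93 control and 126 knockout genes below (25 in both) and 21 and 43 list members below. With macrophages of 0 NK UMIs, 79 control genes were below (1 in both), and 1 list member was above and 12 below; main counts were 3 and 4. Without leaving out genes, 1 gene was below in both. With each droplet at the same total, 143 control genes were above. With exact references 32 control list members were above and Itgad was at 0.45; without a gene minimum for macrophages 8 were below. Median-of-ratios scaling and leaving out shared barcodes moved none of these values beyond its interval or 1.5 times. The 5 settings on the fit, the gene minimum and shared barcodes were added after the data were seen; causes were not tested.

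No paired analysis was possible because each group is 1 library. The 31 control macrophages limit the precision of every control difference on the macrophage side.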

Other observations

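Barcodes with transcripts of other cell types were also searched for NK transcripts. Of all kept barcodes, 10746 of 10928 in the control and 9674 of 10023 in the knockout held at least 6 NK UMIs. Shares near that level therefore do not set a lineage apart from the other barcodes. A barcode was assigned to a lineage when it held at least 5 UMIs over 3 of its genes. At least 6 NK UMIs were found in 32 of 32 control and 14 of 19 knockout barcodes with platelet genes (Pf4, Ppbp and Gp9), in 33 of 34 and 17 of 18 with genes of plasmacytoid dendritic cells (Siglech, Ccr9 and Cox6a2) and in 7 of 8 and 18 of 19 with neutrophil genes (S100a8, S100a9 and Retnlg). For B cell genes it was 0 of 1 and 3 of 9. None of these barcodes was a mixed macrophage droplet.

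Transcripts of some further cell types were few in the mixed droplets. Summed UMIs of 9 dendritic cell genes were 2 in the control and 4 in the knockout, of 9 neutrophil genes 2 and 8, of 7 platelet genes 5 and 33, and of 8 stromal and endothelial genes 0 and 2. The B cell, plasma cell and T cell lists held 47 and 60, 22 and 35, and 230 and 501 UMIs. Their differences from the mixture were -0.12 and -0.24, -0.20 and -0.21, and 0.02 and -0.08. Haemoglobin transcripts were above the mixture in knockout droplets, with Hbb-bs at 147 against 97.5 CPM (0.59, 0.26 to 0.92) and Hba-a1 at 92.6 against 49.5 CPM (0.90, 0.46 to 1.34). A single droplet held 69.4% and 63.2% of their UMIs, and Hba-a1 cannot be told from its near-identical copy. In control droplets they had 6 and 1 UMIs.

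Across droplets, fitted macrophage and NK UMIs had a Pearson correlation of 0.45 over 57 control droplets and -0.02 over 135 knockout droplets, given as a description. Both sides of a droplet share its capture and depth.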
